A study of Mus musculus with 12 samples.

Results

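Interferon-stimulated antiviral genes were examined in gastrocnemius, a large calf muscle, in male mice that had run or stayed at rest. The 9 genes (Rsad2, Ifit1, Ifit3, Isg15, Irf7, Oasl2, Usp18, Bst2 and Ifih1) were taken by symbol from 43432 Ensembl gene identifiers in the count table, and each symbol had 1 identifier. Of the 9, 8 had enough counts to be tested, and Isg15, with 4 to 12 counts in a library, is given by its values only.

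The study deleted Feimin in mice called cFeimin MKO and compared them with floxed (fl/fl) littermates, called WT. RNA was sequenced from 4 groups of 3 libraries. These were MKO muscle after 90 min of running at 60% of maximal speed, WT muscle after the same run, MKO muscle at rest (sedentary), and WT muscle at rest. No source used here gives the Cre driver, the age of the mice, the hour of sampling or any delay after the run, so the run and the hour of the day cannot be told apart. The labels describe 3 samples a group without saying how many mice each came from, and the p-values cover no more than the spread among these 12 libraries.

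Each library held 14324010 to 14563501 counts assigned to genes. A level is given below as CPM, counts scaled to a common library total, and 3 counts correspond to 0.181 to 0.222 CPM, depending on the library. No label gives the gene symbol of Feimin; B230219D22Rik, taken as that gene from general knowledge, was at 3.52 to 4.59 CPM in exercised MKO, 21.6 to 29.9 CPM in exercised WT, 3.63 to 6.13 CPM in sedentary MKO and 21.7 to 24.3 CPM in sedentary WT libraries, so with that assignment every library matched its genotype label. The 10 skeletal muscle markers, among them Acta1 and Ckm, summed to between 113000 and 165000 CPM in the 12 libraries.

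Type I interferons are secreted proteins that bind a receptor made of Ifnar1 and Ifnar2. The receptor activates the kinases Jak1 and Tyk2, and the signal ends at transcription factors that bind the interferon-stimulated response element in the promoters of antiviral genes. Most tissues keep a low tonic expression of these genes without infection, and skeletal muscle raises many of them strongly in inflammatory muscle disease.

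The core of that element, a pair of GAAA blocks spaced by any 2 bases (a pair of TTTC blocks when it is on the other strand), was searched for in the 250 bases before each RefSeq gene start (GRCm38.p6). Promoter entries were matched for 8 of the genes, and 5 held at least 1 match, while 978 of 32851 promoters of the same length (2.98%) did. Allowing 1 mismatch in the fixed letters, 7 of the 8 held a match, against 31.4% of all promoters. The sequences of 4 genes are printed because they set the genes with the clearest changes after running, Rsad2, Ifit3 and Oasl2, beside Isg15, which holds the most matches. Capitals mark the matched bases, each sequence reads 5′ to 3′ on its gene's strand, and its last base lies just before the gene start. Rsad2 is at chr12:26456453-26456702 (minus strand), Ifit3 at chr19:34583279-34583528 (plus strand), Oasl2 at chr5:114896684-114896933 (plus strand) and Isg15 at chr4:156200819-156201068 (minus strand).
Rsad2: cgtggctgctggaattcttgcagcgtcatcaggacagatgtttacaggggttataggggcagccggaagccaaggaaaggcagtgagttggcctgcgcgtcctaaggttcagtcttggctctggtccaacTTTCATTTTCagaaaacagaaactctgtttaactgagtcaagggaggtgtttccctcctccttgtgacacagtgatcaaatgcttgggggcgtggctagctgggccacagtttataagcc
Ifit3: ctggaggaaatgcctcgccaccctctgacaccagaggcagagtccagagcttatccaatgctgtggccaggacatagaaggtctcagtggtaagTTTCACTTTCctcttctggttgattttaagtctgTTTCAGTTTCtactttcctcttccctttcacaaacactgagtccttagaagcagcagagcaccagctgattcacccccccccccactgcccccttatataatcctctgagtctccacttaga
Oasl2: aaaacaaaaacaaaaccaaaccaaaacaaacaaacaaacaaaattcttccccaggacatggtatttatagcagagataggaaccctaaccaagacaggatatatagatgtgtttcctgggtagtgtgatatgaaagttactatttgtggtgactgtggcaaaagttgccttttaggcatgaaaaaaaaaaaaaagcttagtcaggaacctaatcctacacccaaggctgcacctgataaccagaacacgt
Isg15: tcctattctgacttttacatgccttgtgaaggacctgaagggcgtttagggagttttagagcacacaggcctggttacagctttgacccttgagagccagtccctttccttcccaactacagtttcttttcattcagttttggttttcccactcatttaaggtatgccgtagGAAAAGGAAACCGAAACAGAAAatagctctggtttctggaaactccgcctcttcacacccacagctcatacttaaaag

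Rsad2 held 1 match, which began 120 bases before the start. Ifit3 held 2 matches, at 156 and 122 bases, and Ifit1 held 2, at 104 and 85 bases, all on the other strand. Isg15 held 3 matches at 78, 72 and 66 bases and Bst2 held 2 at 130 and 124 bases, on the gene strand, and the matches within each of these promoters overlap one another. Irf7, Oasl2 and Ifih1 had no exact match in this window. A match is a run of letters, not a measured binding site.

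**Figure D1:**
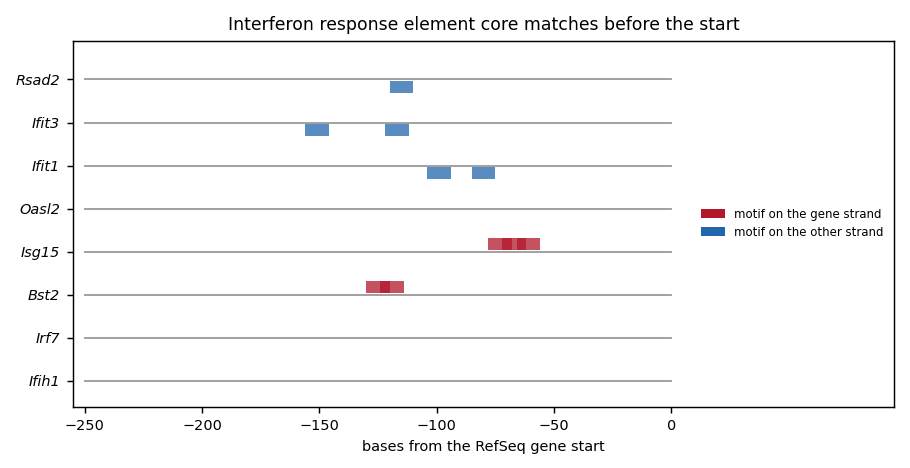
Position of each exact match of the interferon response element core in the 250 bases before the RefSeq start, in bases from the start (x axis), for the 8 genes with a promoter entry (rows). Blocks above a line are on the gene strand and blocks below it on the other strand. Rsad2, Ifit3 and Ifit1 hold matches on the other strand, Isg15 and Bst2 hold overlapping matches on the gene strand, and the lines of Oasl2, Irf7 and Ifih1 are empty.

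All 9 genes were expressed at a low level. Per kilobase of exon, the scale on which genes can be compared, sedentary MKO muscle held a mean of 6.13 CPM per kb of Bst2, 1.74 of Ifit3, 0.912 of Rsad2, 0.735 of Isg15, 0.733 of Irf7, 0.528 of Usp18, 0.44 of Ifit1, 0.415 of Oasl2 and 0.211 of Ifih1. Bst2, which encodes tetherin, a membrane protein that holds budding virus particles on the cell, therefore had the highest level of the set. Summed over the 9 genes, levels were 13.3 to 15.5 CPM in exercised MKO, 10.3 to 13.7 CPM in exercised WT, 21.3 to 23.8 CPM in sedentary MKO and 17.9 to 23.7 CPM in sedentary WT libraries, and the exercised and sedentary ranges did not overlap. Among single genes, Rsad2 and Ifit3 showed the same separation, as did 3.83% of all genes tested.

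**Figure D2:**
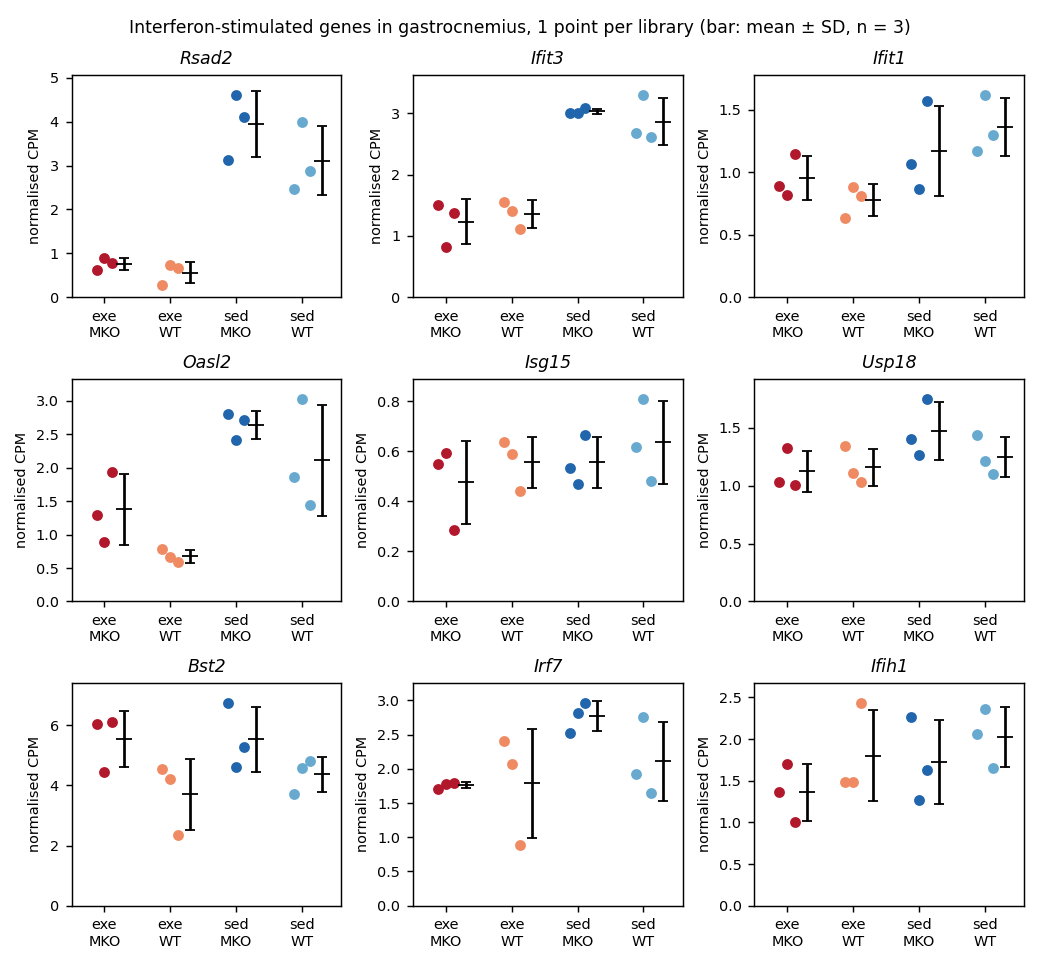
Level of each of the 9 genes in CPM (y axis of each panel) in every library of the 4 groups (x axis), with 1 point per library and a bar at the group mean ± SD (n = 3). Exercised libraries lie below sedentary ones without overlap for Rsad2 and Ifit3, and the 4 groups overlap for Isg15, Usp18 and Ifih1.

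Running was compared with rest within each genotype and as the mean of both genotypes. Across all 14486 genes tested, 1.75% were called lower after running in MKO muscle, 4.1% in WT muscle and 7.4% in the mean of both, at an adjusted p under 0.05 (edgeR's quasi-likelihood test with Benjamini-Hochberg adjustment). Of the 8 tested antiviral genes, 2 were called lower in MKO muscle (Rsad2 and Ifit3), 3 in WT muscle (Rsad2, Ifit3 and Oasl2) and 3 in the mean of both (Rsad2, Ifit3 and Oasl2), and none was called higher, where 2.29% of all genes were in MKO muscle, 4.14% in WT muscle and 6.16% in the mean. This set and the lists below were chosen with earlier results of these data known, so their counts are a description and not a test. The fitted change was below 0 for 7 of 8 genes in MKO muscle, and for 8 of 8 in WT muscle and in the mean. The sign for Bst2 changed without exercised WT replicate 5 in WT muscle and in the mean, and with several settings in MKO muscle. In WT muscle Irf7 turned above 0 without sedentary WT replicate 3 (0.00399) or exercised WT replicate 5 (0.0857). Irf7 also did so with the replicate number as a block (0.0428), and Usp18 without sedentary WT replicate 1 (0.00849). With the block 7 of 8 genes were below 0 in WT muscle. Without exercised MKO replicate 4, exercised WT replicate 5 and sedentary MKO replicate 3 together, 6 of 8 were. The median log2 fold change of the 8 genes was -0.52 in MKO muscle, -0.52 in WT muscle and -0.50 in the mean, against a median near 0 for all genes tested. In some runs with 1 library left out Isg15 also passed the filter, and the median then covered 9 genes. It was -0.346 in MKO muscle without exercised MKO replicate 1. In WT muscle it was -0.341 without sedentary WT replicate 1 and -0.343 without exercised WT replicate 4. With all 12 libraries and no filter, the median of the 9 genes was -0.40 in MKO and -0.227 in WT muscle. Between a 9-gene left-out median and the 8-gene one with all libraries, the added gene and the missing library cannot be told apart. The median stayed on 8 genes without sedentary MKO replicate 3 (-0.478 in MKO muscle) and without sedentary WT replicate 3 (-0.432 in WT muscle). Both exercise contrasts come from the same fit and share its estimate of the spread.

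Rsad2 (chr12:26442746-26456452 in GRCm38, minus strand, ENSMUSG00000020641, protein-coding like all 9 genes) encodes viperin, a radical SAM enzyme that makes a nucleotide which ends viral RNA chains. In MKO muscle it was at 0.616, 0.889 and 0.791 CPM after running, against 3.13, 4.61 and 4.11 CPM at rest. In WT muscle it was at 0.283, 0.739 and 0.664 CPM after running, against 2.47, 3.98 and 2.88 CPM at rest. All 6 exercised libraries lay below all 6 sedentary ones, as was the case for 3.83% of all genes tested, and the counts behind these values were 4 to 12 in exercised and 36 to 69 in sedentary libraries. Rsad2 fell 5.14-fold in MKO muscle (log2 fold change -2.36 ± 0.286 SE, adjusted p = 0.00103 with edgeR) and 5.50-fold in WT muscle (-2.46 ± 0.311, adjusted p = 0.000533 with edgeR). The log2 difference between the genotypes' exercise responses was 0.10 ± 0.433 SE (adjusted p = 0.995 with edgeR), with 4 to 12 counts in each exercised library.

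Cmpk2, a mitochondrial nucleotide kinase gene beside Rsad2 on chromosome 12 (chr12:26469204-26479837, plus strand) and itself an interferon-stimulated gene, also fell. It averaged 0.81 ± 0.206 CPM in exercised MKO, 0.51 ± 0.0122 CPM in exercised WT, 1.96 ± 0.16 CPM in sedentary MKO and 2.14 ± 0.552 CPM in sedentary WT muscle (SD, n = 3 each). Its log2 fold change in the mean of both genotypes was -1.66 ± 0.182 SE (adjusted p = 9.44e-05 with edgeR), against -2.41 ± 0.211 SE for Rsad2 (adjusted p = 1.92e-05 with edgeR).

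Ifit3 and Ifit1 encode tetratricopeptide-repeat proteins. IFIT1 binds viral RNA with an incomplete cap, and in human cells IFIT3 stabilises IFIT1. Ifit3 (chr19:34583531-34588731, plus strand, ENSMUSG00000074896) was at 1.51, 0.815 and 1.37 CPM in exercised MKO, against 3, 3.01 and 3.08 CPM in sedentary MKO libraries. It was at 1.56, 1.4 and 1.11 CPM in exercised WT, against 2.68, 3.30 and 2.61 CPM in sedentary WT libraries. Again no exercised library reached a sedentary one, as was the case for 3.83% of all genes tested. Ifit3 fell 2.44-fold in MKO muscle (log2 fold change -1.29 ± 0.209 SE, adjusted p = 0.00493) and 2.1-fold in WT muscle (-1.07 ± 0.209, adjusted p = 0.00738), both with edgeR.

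Ifit3 has a near-identical copy, Ifit3b, and 51.2% of the 50-base windows of Ifit3 transcripts also occur in Ifit3b. No source used here says how reads that match both were counted, so the split between them is uncertain. Ifit3b averaged 1.84 ± 0.6 CPM in exercised MKO, 3.1 ± 0.68 CPM in exercised WT, 2.74 ± 0.586 CPM in sedentary MKO and 2.8 ± 0.559 CPM in sedentary WT muscle (SD, n = 3 each). With the counts of both genes summed, a setting chosen after seeing the data, the log2 fold change was -0.90 ± 0.198 SE in MKO muscle (adjusted p = 0.0246 with edgeR) and -0.34 ± 0.192 SE in WT muscle (adjusted p = 0.342 with edgeR), so the call in WT muscle was lost. In the mean of both genotypes the sum was still lower after running (-0.62 ± 0.138, adjusted p = 0.00988 with edgeR). Across genotypes the summed levels overlapped, reaching 5.1 CPM in exercised WT against a lowest value of 5.06 CPM in sedentary MKO libraries. Within each genotype they stayed apart, as was the case for 11.6% of all genes tested in MKO and 14.8% in WT muscle.

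Ifit1 (chr19:34640871-34650009, plus strand) averaged 0.952 ± 0.176 CPM in exercised MKO, 0.778 ± 0.128 CPM in exercised WT, 1.17 ± 0.363 CPM in sedentary MKO and 1.36 ± 0.231 CPM in sedentary WT muscle (SD, n = 3 each). The WT libraries did not overlap, with 0.637 to 0.886 CPM after running against 1.17 to 1.62 CPM at rest, but 14.8% of all genes tested were lower in WT muscle in the same way. Its change did not pass the test in MKO muscle (-0.30 ± 0.268, adjusted p = 0.698), in WT muscle (-0.81 ± 0.274, adjusted p = 0.103) or in the mean of both (-0.55 ± 0.192, adjusted p = 0.0835), all with edgeR. The last of these passed when total counts alone set the library size (-0.68, adjusted p = 0.0408), a scaling that moved the median of all genes by -0.125 on the log2 scale.

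Oasl2 (chr5:114896936-114912234, plus strand, ENSMUSG00000029561) belongs to the oligoadenylate synthetase family, whose products activate the RNA-cutting enzyme RNase L. In MKO muscle it was at 1.30, 0.889 and 1.94 CPM after running, against 2.80, 2.41 and 2.72 CPM at rest. In WT muscle it was at 0.779, 0.665 and 0.590 CPM after running, against 1.86, 3.03 and 1.44 CPM at rest. Neither genotype's exercised range reached its sedentary range, a separation shown in that direction by 11.6% of all genes tested in MKO and 14.8% in WT muscle. Across genotypes, exercised MKO replicate 4 lay above the lower sedentary WT libraries. Oasl2 fell 3.09-fold in WT muscle (log2 fold change -1.63 ± 0.341 SE, adjusted p = 0.0114 with edgeR), and its change in MKO muscle was -0.93 ± 0.294 SE (adjusted p = 0.118 with edgeR). The difference between the responses was 0.69 ± 0.457 SE (adjusted p = 0.983 with edgeR), so the pass in WT muscle and the miss in MKO muscle do not show that the genotypes differ. In the mean of both genotypes Oasl2 fell 2.43-fold (-1.28 ± 0.226, adjusted p = 0.00254 with edgeR).

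Irf7 (chr7:141262706-141266481, minus strand), encoding the transcription factor that amplifies interferon production, was at 1.71 to 1.80 CPM in exercised MKO and 2.53 to 2.96 CPM in sedentary MKO libraries. That is a separation shown by 11.6% of all genes tested, and the change of -0.65 ± 0.286 SE did not pass the test (adjusted p = 0.305 with edgeR). In WT muscle the ranges overlapped, with 0.885 to 2.41 CPM after running and 1.65 to 2.76 CPM at rest. The lowest of these values, 0.885 CPM, was exercised WT replicate 5, and without that library the fitted change in WT muscle was 0.0857 in place of -0.24, and it was 0.00399 without sedentary WT replicate 3. Irf7 shares 45 exonic bases with Phrf1 on the opposite strand, and no source used here says whether strand was used in counting.

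None of the remaining genes passed the test after running. Usp18 (chr6:121245906-121270917, plus strand) removes ISG15 from proteins and dampens the interferon receptor. It averaged 1.12 ± 0.183 CPM in exercised MKO, 1.16 ± 0.163 CPM in exercised WT, 1.47 ± 0.251 CPM in sedentary MKO and 1.25 ± 0.176 CPM in sedentary WT muscle (SD, n = 3 each, here and below). Ifih1 (chr2:62595798-62646255, minus strand) encodes MDA5, a sensor of long duplex RNA in the cytoplasm, and averaged 1.36 ± 0.349 CPM in exercised MKO, 1.80 ± 0.549 CPM in exercised WT, 1.72 ± 0.504 CPM in sedentary MKO and 2.02 ± 0.358 CPM in sedentary WT muscle. For Bst2 (chr8:71534255-71537456, minus strand) the averages were 5.53 ± 0.938 CPM in exercised MKO, 3.70 ± 1.17 CPM in exercised WT, 5.53 ± 1.08 CPM in sedentary MKO and 4.37 ± 0.577 CPM in sedentary WT muscle. Their log2 changes in the mean of both genotypes were -0.25 ± 0.152 SE for Usp18, -0.26 ± 0.201 SE for Ifih1 and -0.12 ± 0.163 SE for Bst2.

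Isg15 (chr4:156199424-156200818, minus strand) encodes the ubiquitin-like modifier that is attached to other proteins. It was at 0.287 to 0.593 CPM in exercised MKO, 0.442 to 0.637 CPM in exercised WT, 0.468 to 0.665 CPM in sedentary MKO and 0.48 to 0.809 CPM in sedentary WT libraries. These ranges overlap. When no filter on low counts was set, its log2 change in the mean of both genotypes was -0.20 ± 0.229 SE (adjusted p = 0.874 with edgeR). Isg15, which was left out of the main test, holds the most promoter matches of the set, and these overlap one another. Oasl2, which was called lower in WT muscle, holds none. A link between the matches and the changes after running was not tested.

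**Figure D3:**
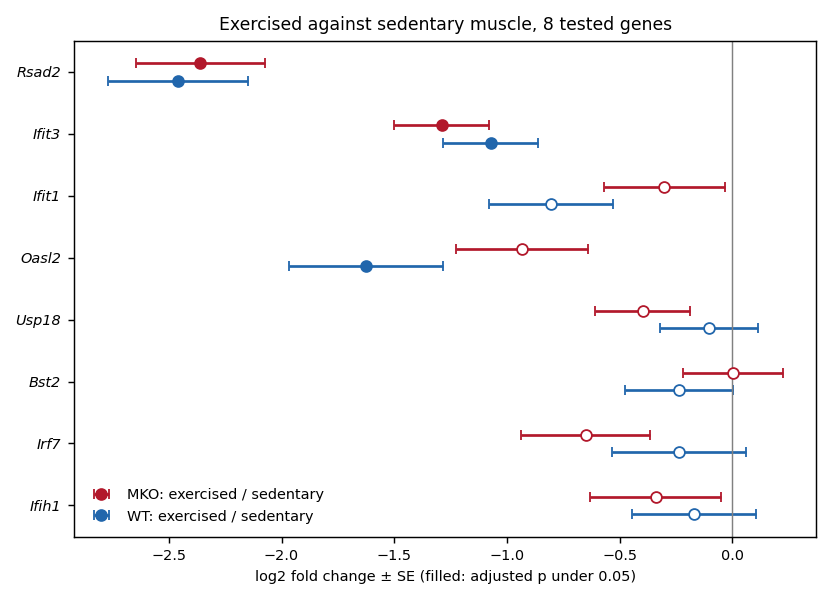
Log2 fold change after running (x axis, exercised over sedentary, ± SE) for the 8 tested genes (rows), in MKO muscle (red) and WT muscle (blue). Filled points passed at an adjusted p under 0.05. Rsad2 stands at -2.36 in MKO and -2.46 in WT muscle, Ifit3 passed in both genotypes, Oasl2 passed in WT muscle, and the other genes have open points nearer 0.

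MKO was then compared with WT at each state. No antiviral gene passed the test in exercised muscle, where 0.0345% of all genes tested were called in either direction, in sedentary muscle, where 0.0069% were, or in the mean of both states, where 0.0138% were. At an unadjusted p under 0.05 edgeR gave 2319 genes in exercised (16%) and 545 in sedentary muscle (3.76%), and Oasl2 and Bst2 were among those of exercised muscle. The fitted change was above 0 for 4 of 8 genes in exercised muscle, with a median log2 fold change of 0.13. In sedentary muscle it was above 0 for 6 of 8 (median 0.28). Leaving out any 1 exercised library let Isg15 pass the filter. The exercised median of 9 genes then ran from -0.128, without exercised WT replicate 5, to 0.111. With no library left out and no filter, the 9-gene median was -0.0345 in exercised and 0.241 in sedentary muscle. The sedentary median stayed on 8 genes when WT replicate 3 (0.297) or MKO replicate 3 (0.191) was dropped. It covered 9 genes when WT replicate 4 (0.114) or MKO replicate 1 (0.178) was dropped. Between a 9-gene left-out median and the 8-gene one, the added gene and the missing library cannot be told apart.

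Oasl2 was at 0.889 to 1.94 CPM in exercised MKO and 0.59 to 0.779 CPM in exercised WT libraries, which did not overlap, a separation shown in that direction by 11.1% of all genes tested. The log2 fold change was 1.01 ± 0.363 SE (adjusted p = 0.233 with edgeR), and in sedentary muscle it was 0.32 ± 0.277 SE (adjusted p = 1 with edgeR). Bst2 was at 4.45 to 6.11 CPM in exercised MKO and 2.36 to 4.53 CPM in exercised WT libraries, ranges that overlap slightly. Its log2 fold change was 0.58 ± 0.234 SE in exercised muscle (adjusted p = 0.265 with edgeR) and 0.34 ± 0.227 SE in sedentary muscle (adjusted p = 1 with edgeR). For Rsad2 the genotype change was 0.44 ± 0.384 SE in exercised and 0.34 ± 0.233 SE in sedentary muscle, and for Ifit3 it was -0.14 ± 0.234 SE in exercised and 0.08 ± 0.186 SE in sedentary muscle. None of the 8 genes passed in the test of the difference between the exercise responses, and neither did any of the 14486 genes tested with edgeR (0%), while 534 (3.69%) had an unadjusted p under 0.05 and DESeq2 called 3.

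**Figure D4:**
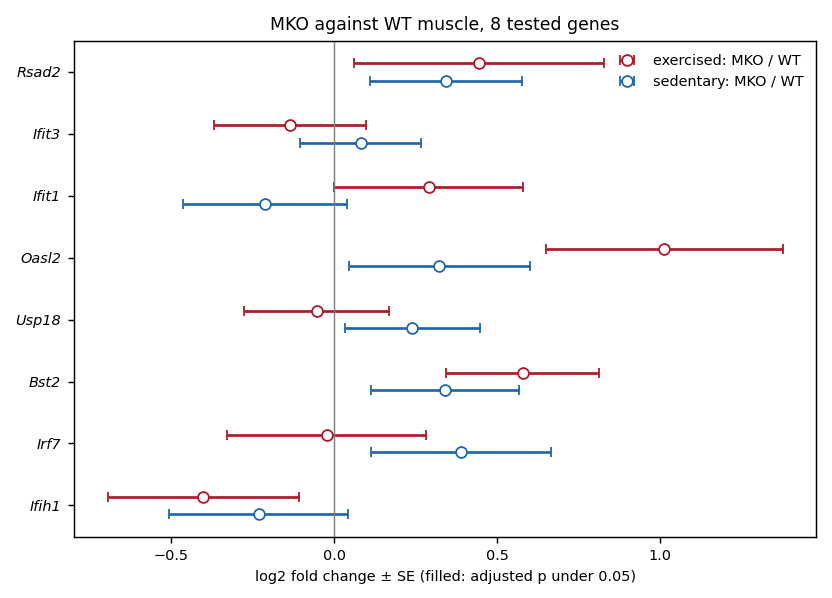
Log2 fold change of MKO over WT muscle (x axis, ± SE) for the 8 tested genes (rows), in exercised (red) and sedentary (blue) muscle. All points are open, since none passed at an adjusted p under 0.05. Oasl2 in exercised muscle lies farthest to the right at 1.01.

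The 20 interferon ligand genes in the table, such as Ifnb1, could not be tested, and 19 of them had no count in any of the 12 libraries, while the other had 1 count in exercised MKO replicate 2. In the interferon receptor and signal transducer list, 3 of 15 tested genes fell in the mean of both genotypes, where 7.4% of all genes tested did. The list's median was 0.07 (-0.055 with total counts alone, and -0.0404 without exercised WT replicate 5). Both type I receptor chains were among the 3, with log2 fold changes of -0.51 ± 0.123 SE for Ifnar1 (adjusted p = 0.0152 with edgeR) and -0.63 ± 0.123 SE for Ifnar2 (adjusted p = 0.00478 with edgeR), and the third was Il10rb, a chain shared by interferon lambda and interleukin-10 receptors (-0.73 ± 0.151, adjusted p = 0.00659 with edgeR). Jak1 (-0.04 ± 0.0815, adjusted p = 0.839) did not pass with edgeR.

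Among 14 tested nucleic acid sensors, adaptors and interferon regulatory factors, 2 rose and 1 fell in the mean of both genotypes, where 6.16% of all genes tested were called higher and 7.4% lower, so the share that fell was near that background. Irf8, a factor of myeloid cells, averaged 6.38 ± 2.04 CPM in exercised MKO, 9.75 ± 1.87 CPM in exercised WT, 3.26 ± 0.272 CPM in sedentary MKO and 3.16 ± 0.725 CPM in sedentary WT muscle (log2 fold change in the mean 1.29 ± 0.174 SE, adjusted p = 0.000406 with edgeR). Ticam1, the adaptor of the endosomal sensor Tlr3, rose with a log2 fold change of 0.74 ± 0.101 SE (adjusted p = 0.00046 with edgeR). Tlr3 itself fell by 1.34 ± 0.187 on that scale (adjusted p = 0.000502 with edgeR). Leaving out sedentary MKO replicate 3 or exercised MKO replicate 4 made it 2 genes that fell, as did total counts alone, and leaving out both with exercised WT replicate 5 made it 4 of 15.

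The other interferon-stimulated genes, a list of 55 of which 41 were tested, were mostly below 0. In the mean of both genotypes 14 fell, 1 rose and 29 of 41 were below 0, with a median log2 fold change of -0.35, against 7.4% of all genes called lower. Ifit2, a relative of Ifit1, fell by 1.14 ± 0.223 (adjusted p = 0.00478 with edgeR), and it averaged 0.781 ± 0.183 CPM in exercised MKO, 0.752 ± 0.149 CPM in exercised WT, 1.94 ± 0.697 CPM in sedentary MKO and 1.5 ± 0.28 CPM in sedentary WT muscle. Phf11d fell by 1.29 ± 0.248, Sp100, a nuclear body protein, by 0.80 ± 0.139, and Ifitm3, which blocks virus entry at membranes, by 0.46 ± 0.0935 on the log2 scale. Helz2, a helicase and nuclear receptor coactivator, rose by 1.03 ± 0.135 (adjusted p = 0.000329 with edgeR) and averaged 11.4 ± 1.76 CPM in exercised MKO, 13.6 ± 2.58 CPM in exercised WT, 6.19 ± 1.34 CPM in sedentary MKO and 5.96 ± 0.788 CPM in sedentary WT muscle. The count of 14 was 9 without exercised MKO replicate 4, exercised WT replicate 5 and sedentary MKO replicate 3 together, and 10 to 16 with any 1 library left out.

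Interferon-gamma and class I antigen presentation genes were also mostly below 0, with 10 of 23 tested genes called lower, none called higher and 19 below 0 in the mean of both genotypes (median -0.30). Of all genes tested, 7.4% were called lower and 6.16% higher in that mean. Of the guanylate-binding proteins, interferon-induced GTPases of the cell's own defence, 5 were tested and 4 fell. Gbp2 averaged 2.55 ± 0.402 CPM in exercised MKO, 1.79 ± 0.109 CPM in exercised WT, 5.45 ± 0.725 CPM in sedentary MKO and 4.52 ± 0.827 CPM in sedentary WT muscle (-1.21 ± 0.126 SE, adjusted p = 6.42e-05 with edgeR). Gbp3 fell by 1.27 ± 0.221, Gbp4 by 1.31 ± 0.238 and Gbp9 by 0.74 ± 0.147 on the log2 scale, while Gbp7, at -0.44 ± 0.19 SE, did not pass (adjusted p = 0.17 with edgeR), and these relatives are alike in sequence. Tap1, which pumps peptides into the endoplasmic reticulum, fell by 1.14 ± 0.201 (adjusted p = 0.00253 with edgeR), and Tgtp2, whose copy Tgtp1 is near-identical, by 1.20 ± 0.226. In the genotype comparisons no gene of these lists passed, and Ifitm3, with 0.38 ± 0.0934 SE in the mean of both states, had an adjusted p of 0.156 with edgeR.

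**Figure D5:**
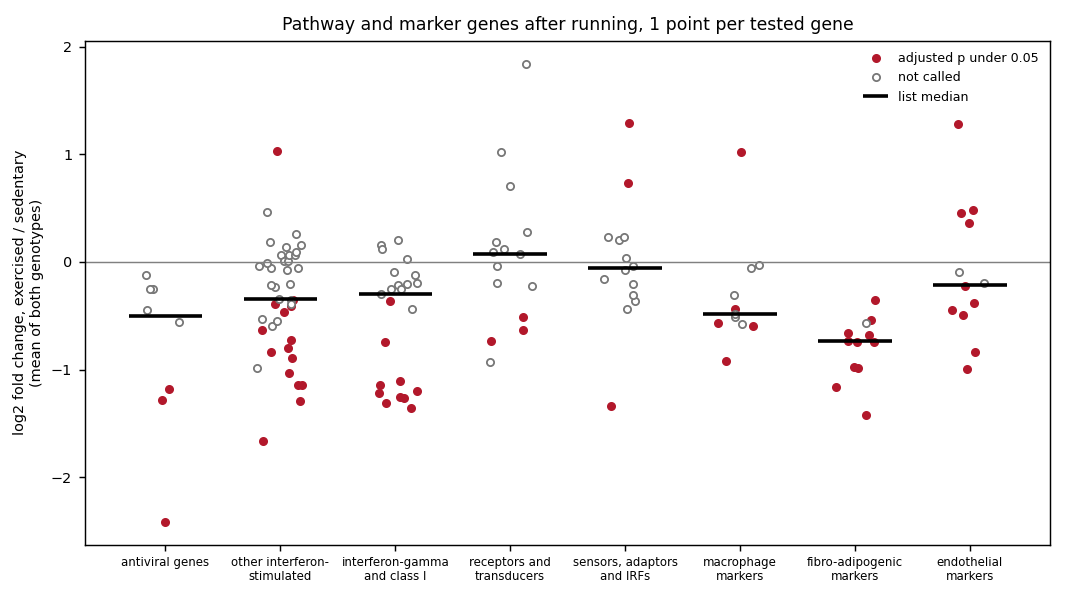
Log2 fold change after running in the mean of both genotypes (y axis, exercised over sedentary) for every tested gene (1 point each) of the antiviral set, 4 interferon pathway lists and 3 marker lists (x axis). Filled points passed at an adjusted p under 0.05 and bars are list medians. Medians are -0.50 for the antiviral genes, -0.35 for other interferon-stimulated genes, -0.30 for the class I list, 0.07 for receptors (below 0 with total counts alone as library size) and -0.74 for fibro-adipogenic markers.

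Markers of some other cell types in the muscle piece moved with these genes, and those of others did not. In bulk tissue fewer cells of a type and less RNA per cell cannot be told apart. The 12 markers of fibro-adipogenic progenitors, the resident connective tissue cells, summed to 663 to 872 CPM in exercised MKO, 623 to 702 CPM in exercised WT, 1280 to 1470 CPM in sedentary MKO and 1240 to 1280 CPM in sedentary WT libraries. In the mean of both genotypes 12 of 12 were below 0 after running (median -0.74). Of these, 11 were called lower, against 7.4% of all genes tested, and 7 to 12 were with any 1 library left out. Macrophage markers (13 genes, 11 tested) summed to 68.9 to 158 CPM in exercised MKO, 52.6 to 62.6 CPM in exercised WT, 120 to 166 CPM in sedentary MKO and 78.9 to 111 CPM in sedentary WT libraries. In the mean of both genotypes 10 of 11 were below 0 after running (median -0.48), with 4 called lower and 1 called higher. That held for 10 of 11 in WT muscle (median -0.717) and for 7 of 11 in MKO muscle (median -0.238). Without exercised MKO replicate 2 the median in MKO muscle was 0.19. The 11 tested macrophage markers were all above 0 in MKO against WT muscle, with a median of 1.03 in exercised and 0.58 in sedentary muscle. None of them passed the test with edgeR. Fibro-adipogenic markers were above 0 for 11 of 12 in exercised (median 0.485) and 12 of 12 in sedentary muscle (median 0.222), again with none called. Endothelial markers were above 0 for 5 of 12 in exercised and 6 of 12 in sedentary muscle. Endothelial markers summed to 296 to 394 CPM in exercised MKO, 377 to 426 CPM in exercised WT, 339 to 451 CPM in sedentary MKO and 367 to 439 CPM in sedentary WT libraries, ranges that overlap. Single endothelial markers moved both ways in the mean of both genotypes, with 6 of 12 called lower and 4 higher (median -0.21). Of all genes tested, 7.4% were called lower and 6.16% higher. With any 1 library left out, 3 to 6 of the endothelial markers were called lower. Red blood cell markers summed to 514 to 837 CPM in exercised MKO, 448 to 574 CPM in exercised WT, 1360 to 2280 CPM in sedentary MKO and 419 to 1690 CPM in sedentary WT libraries. The 6 tested were all below 0 after running in the mean of both genotypes (median -1.18), and 4 were called lower. All 6 were above 0 in MKO against WT muscle, with none called (median 0.389 in exercised and 0.918 in sedentary muscle). The part of these cell types in the antiviral genes' values was not tested.

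Plasmacytoid dendritic cell markers, from the cells that make most type I interferon in blood, summed to at most 0.934 CPM in any library, and T and NK cell markers to at most 0.602 CPM, with 7 of 10 at 0 in all 12 libraries. Neutrophil markers summed to 1.37 to 1.72 CPM in exercised MKO, 0.664 to 1.56 CPM in exercised WT, 0.466 to 1.07 CPM in sedentary MKO and 0 to 0.202 CPM in sedentary WT libraries, so within each genotype the exercised sums lay above the sedentary ones, opposite to the antiviral genes, at no more than 24 counts a library. The 6 B cell markers, which include the abundant immunoglobulin genes Ighm and Igkc, summed to 123 to 150 CPM in exercised MKO, 46.4 to 139 CPM in exercised WT, 60.3 to 180 CPM in sedentary MKO and 52.2 to 87.8 CPM in sedentary WT libraries.

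Exercised WT replicate 5 was among the 3 lowest libraries for 7 of the 8 tested genes, yet it had the highest Ifih1 value of all, 2.43 CPM. Sedentary MKO replicate 3 and sedentary WT replicate 3 were each among the 3 highest for 6 of the 8. When each gene was standardised and averaged, libraries ran from -1.12 in exercised WT replicate 5 to 1.04 in sedentary MKO replicate 3, and every exercised library was below 0 and every sedentary one above it.

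The genes outside the set whose levels followed that average most closely over the 12 libraries were Ly6e (Pearson r 0.98), Ms4a4d (0.979), Igfbp7 (0.96), Cd38 (0.954), Dse (0.948), Osr1 (0.945), Gstt3 (0.941), Pcolce (0.94), Aplnr (0.938) and Map10 (0.938). These values describe libraries that fall into exercised and sedentary groups, so the step between the states enters them. After each library's group mean was removed, r over these 10 genes ran from 0.561 for Aplnr to 0.955 for Cd38, with 0.907 for Ly6e. Ly6e, a membrane protein gene that interferon also induces, averaged 46.4 ± 3.28 CPM in exercised MKO, 37.8 ± 3.28 CPM in exercised WT, 72.4 ± 7.91 CPM in sedentary MKO and 66.2 ± 10.4 CPM in sedentary WT muscle (SD, n = 3 each).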

How the data were processed

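Raw counts per Ensembl gene were used as deposited by the authors for 12 libraries; the labels' protocol mentions 18. Per the submitters' processing notes, HISAT2 2.2.1, StringTie 2.1.4, SAMtools 1.9, FastQC 0.12.1 and DESeq2 1.40.2 under R 4.3 were used, with GRCm38.p6 and mm10. No source used here gives the counting tool, its strand setting, its treatment of reads with several matches or the annotation release. The column for exercised MKO replicate 4 has a misspelt name and was matched by its group and number. Symbols and positions came from GENCODE M21 (42462 of 43432 identifiers matched) and promoters from RefSeq.

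The counts were tested in R 4.3.3 with edgeR 4.0.16. The filter filterByExpr (minimum count 10, minimum total 15) kept 14486 genes, and TMM factors ran from 0.928 to 1.15. All 12 libraries entered 1 quasi-likelihood fit with a mean per group (8 residual degrees of freedom, biological coefficient of variation 15.3%), and p-values of 7 comparisons were adjusted over all genes tested (Benjamini-Hochberg, threshold 0.05). The fit was tested on simulated data. No 2 libraries of a group agreed within sampling noise (chi-square per gene 4.307 to 45.04). Alternatives used other size factors, total counts, DESeq2 1.42.0, limma-voom (limma 3.58.1), other filters, the compared groups alone, a replicate block and left-out libraries. Python 3.11.15 and matplotlib 3.10.9 drew the figures.

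The antiviral genes, the lists and the markers were chosen with earlier results of these data known. Named were all 9 genes in every comparison, up to 6 genes by p that passed in a list, otherwise up to 4 with the smallest p, and the 10 genes most alike over the libraries. Jak1, Gbp7, Ifit3b and Phrf1 were added after their values were seen.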

Additional observations from a re-analysis of the deposited data

How the results depend on the processing

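Rsad2 kept its direction and its call after running in every comparison and alternative run, from -2.53 to -2.25 on the log2 scale in the mean of both genotypes with any 1 library left out. Of 966 values of single genes under an alternative, 915 kept direction and side of the threshold, 3 lost a call, 1 gained one and 47 changed sign, none of them a called value. The lost calls, both with the replicate number as a block, were Ifit3 in WT muscle after running (-0.96, adjusted p = 0.0806) and Oasl2 in WT muscle after running (-1.59, adjusted p = 0.0827), and Ifit3 was also lost with Ifit3b summed (-0.34), which pools reads the copies share. Same-numbered libraries did not deviate together (r from -0.153 to 0.0759 over 10 pairs), so the number is not taken to pair samples. The block also took the counts of called genes to 361 in MKO and 602 in WT muscle after running, against 586 and 1193 without it, to 2 in exercised and 0 in sedentary muscle for MKO against WT, and to 7 and 5 lower genes in the other interferon-stimulated and class I lists, against 14 and 10.

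Sign changes of uncalled values with the block were Irf7 after running in WT (0.0428), Bst2 after running in MKO (-0.0278), Ifit3 in MKO against WT averaged over states (0.00365) and the response differences of Bst2 (-0.0269) and Ifih1 (0.11). Total counts alone gave 0.0311 for Ifit3 in MKO against WT averaged over states, 0.00297 for Irf7 in exercised MKO against WT and -0.146 for Bst2 after running in MKO, which was -0.00171 with no filter, and limma-voom gave 0.0916 for Irf7 in exercised MKO against WT. Without exercised MKO replicate 4, exercised WT replicate 5 and sedentary MKO replicate 3 together, an alternative chosen after seeing the data, values were 0.0483 for Ifih1 in exercised MKO against WT, 0.0838 for Irf7 and 0.00254 for Bst2 after running in WT, -0.11 for Bst2 after running in MKO, -0.11 and 0.24 for the response differences of Bst2 and Ifih1, and -0.163 and -0.012 for Ifit1 and Irf7 in MKO against WT averaged over states. With 1 library left out, MKO against WT in exercised muscle ran from -0.31 to 0.0747 for Ifit3, -0.35 to 0.25 for Irf7 and -0.20 to 0.0564 for Usp18, averaged over states from -0.11 to 0.12 for Ifit1 and -0.11 to 0.0782 for Ifit3, after running in WT from -0.51 to 0.0857 for Irf7 and -0.22 to 0.00849 for Usp18 and -0.403 to 0.00377 for Bst2, after running in MKO from -0.113 to 0.163 for Bst2, in the mean of both genotypes from -0.202 to 0.0018 for Bst2, and the response difference from -0.23 to 0.33 for Rsad2, -0.00395 to 0.402 for Bst2 and -0.37 to 0.10 for Ifih1. The cause of these changes was not tested.

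Counts of called genes over the whole table moved more, mostly where few were called. For MKO against WT in exercised muscle, 5 genes were called, against 95 with DESeq2, 2 with no filter and 2 to 108 with 1 library left out (108 without exercised MKO replicate 2). In sedentary muscle 1 was called, against 3 with DESeq2, 3 with limma-voom, 2 in the compared groups alone, 3 without the 3 libraries and 1 to 3 with 1 left out. Averaged over states 2 were called, against 139 with DESeq2, 10 with limma-voom, 4 with total counts, 6 without the 3 libraries and 2 to 163 with 1 left out. For the response difference 0 were called, against 1 with total counts, 3 with DESeq2, 4 with limma-voom, 3 without the 3 libraries and 0 to 3 with 1 left out. After running in MKO the count ran from 316 to 503 with 1 library left out. At 4 to 12 counts a library, depth limits Isg15 and the exercised values of Rsad2.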
